A study of Homo sapiens with 12 samples.

Results

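Primed pluripotency markers are genes whose RNA is abundant in conventional human embryonic stem cells, which resemble the epiblast after implantation, and lower in naive cells, which resemble the epiblast before it. The markers ZIC2, OTX2, SFRP2, THY1, CD24, NLGN4X, SOX11, SALL2 and PODXL were set by name and looked up by symbol in a table of 53717 genes, of which 17264 could be tested. Of the 9 symbols 8 matched a row, and all 8 passed the filter on low counts. CD24 itself matched no row used here and was not analysed. They were measured in H9, an established human embryonic stem cell line, grown in RSeT, a commercial medium under which the labels describe the cells as naive.

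Cells were transfected with a fluorescein-tagged oligonucleotide (25 nM, Lipofectamine Stem), and cells carrying the tag were collected by flow sorting after 48 h. The 3 groups of 4 libraries each are ASO-L1, an antisense oligo against RNA of the LINE1 retrotransposon, sO-L1, a sense oligo to that element, and ASO-Ctr, an antisense oligo with a non-specific target. The level of LINE1 RNA itself was not analysed here, so the knockdown was not checked. Every group, controls included, was also given trans-ISRIB at 0.7 uM, emricasan at 5 uM and Y-27632 at 10 uM, all removed after 24 h. Trans-ISRIB counters the integrated stress response, emricasan blocks caspases and Y-27632 inhibits ROCK. All libraries come from 1 cell line, and the labels do not say that replicates were separate cultures, so p-values measure only the spread between these libraries, which may be technical.

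The markers fall into 3 roles. ZIC2, OTX2, SOX11 and SALL2 are transcription factors: ZIC2 and OTX2 act at enhancers of the primed state, and all of these factors also work in the developing nervous system. SFRP2 is a secreted protein that binds WNT ligands. THY1 (CD90), NLGN4X and PODXL sit on the cell surface: THY1 is a small lipid-anchored glycoprotein long used to mark primed cells, NLGN4X is a neuroligin, an adhesion protein of synapses, and PODXL carries the sugar epitopes read by the stem cell antibodies TRA-1-60 and TRA-1-81. The study addresses the role of LINE1 in controlling genes of the 8-cell embryo in naive cells, and the primed markers are read in the same libraries.

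Libraries held 22830894 to 55056032 counted reads. A count of 0 allows 3 reads, or 0.0534 to 0.128 CPM (the usual depth-normalised read count, on library sizes scaled with edgeR's TMM factors). Such limits cover counting error only, because PCR copies of 1 molecule cannot all be recognised without molecular identifiers. The fewest reads of a marker in a group were the 1036 of ZIC2 over the 4 ASO-Ctr libraries. The cells expressed the defining genes of embryonic stem cells, with POU5F1 at 1168 ± 63.3 CPM, SOX2 at 437 ± 30.3 CPM and NANOG at 139 ± 10.95 CPM in ASO-Ctr (SD, n = 4 here and for all levels below). KLF17, a factor that separates naive from primed human cells, was at 0.108 ± 0.0891 CPM in ASO-Ctr, 0.209 ± 0.216 CPM in sO-L1 and 0.0649 ± 0.0253 CPM in ASO-L1, near the limit of detection. DPPA3, another naive-state gene, was at 30.5 ± 3.33 CPM in ASO-Ctr.

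The 8 markers differed widely in level. Per kilobase of annotated exon (GENCODE 29), ASO-Ctr libraries held 161 ± 6.27 CPM per kb of PODXL and 42.35 ± 6.48 CPM per kb of SFRP2. SALL2 followed at 31.35 ± 1.14 CPM per kb and OTX2 at 16.65 ± 1.095 CPM per kb, each range apart from the one above it. SOX11 (11.01 ± 1.74 CPM per kb), THY1 (9.25 ± 0.216 CPM per kb) and NLGN4X (9.12 ± 0.709 CPM per kb) overlapped in their ranges over libraries, and ZIC2 was lowest at 2.38 ± 0.144 CPM per kb. In ASO-L1 the lower end of the order differed, with ZIC2 at 5.57 ± 0.556 CPM per kb and NLGN4X at 4.97 ± 0.840 CPM per kb, whose ranges overlapped. The exon lengths join all annotated exons of a gene (5925 bases for THY1), which can exceed the transcript expressed and lower the value per kb. They are also of another annotation than the unnamed one behind the counts, so this order is approximate.

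Under ASO-L1, ZIC2, THY1 and SFRP2 rose against ASO-Ctr, by 2.34-, 1.34- and 1.305-fold, NLGN4X fell 1.84-fold, and SALL2 fell by 0.18 on the log2 scale. OTX2, SOX11 and PODXL were not called. Tests are two-sided quasi-likelihood F-tests in edgeR, blocked on replicate number and adjusted by Benjamini-Hochberg over 17264 genes, with genes called at an adjusted p under 0.05. All folds and log2 values below with a standard error (SE) or a 95% interval are from this fit. The test called 3 of 8 markers higher and 2 lower, where it called 21.2% of all tested genes higher and 23.1% lower, 44.3% in all. In the same 5 markers the CPM of the 4 ASO-L1 libraries did not overlap those of ASO-Ctr, as was the case for 33.3% of tested genes (16.3% higher, 17% lower). The median log2 fold change of the 8 markers was 0.02, beside 0.00 over all tested genes (-0.00279), and the median absolute log2 fold change was 0.28 beside 0.23. In bulk RNA, fewer cells with a transcript and less of it per cell cannot be told apart.

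**Figure D1:**
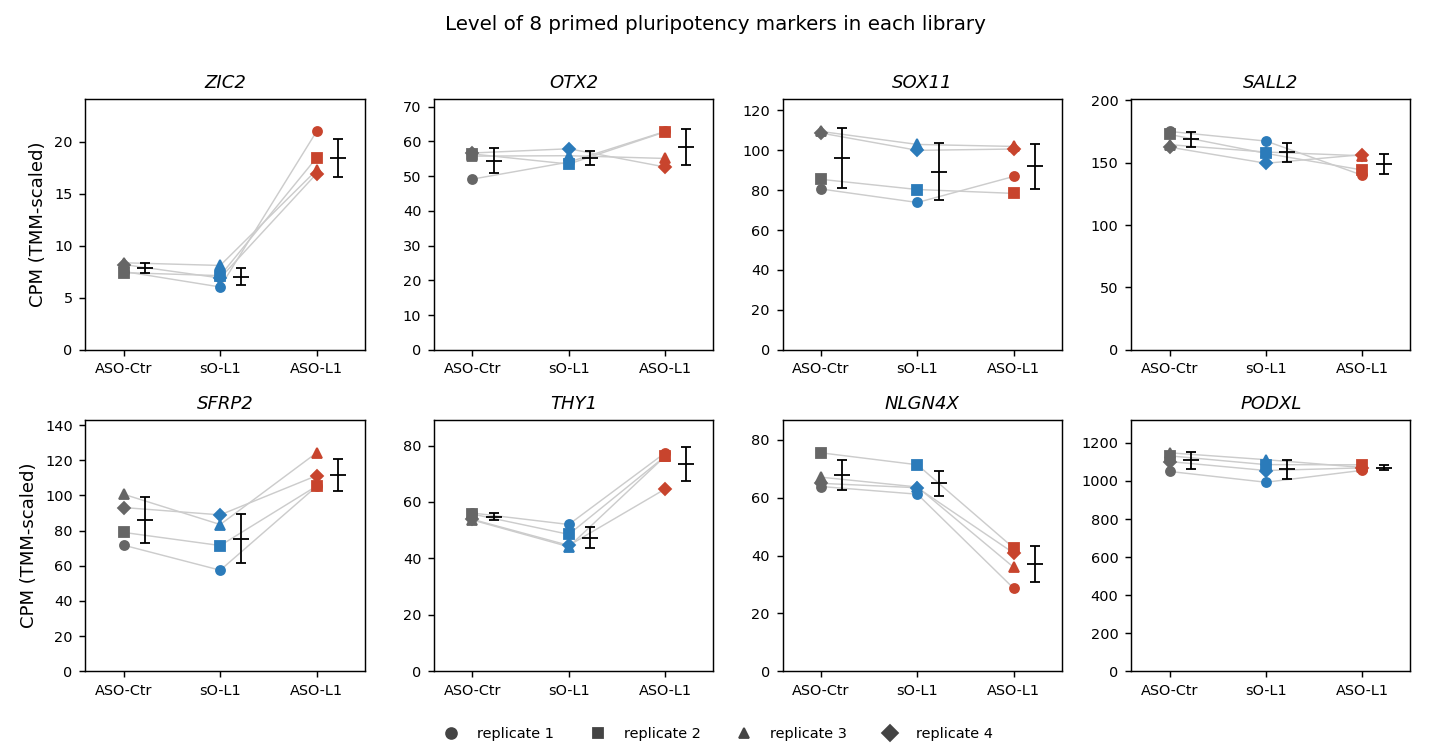
Levels of 8 primed pluripotency markers in TMM-scaled CPM (y axes, each from 0) in the 4 libraries of each oligo group. Symbols mark the replicate number, grey lines join libraries of the same number, and the bar beside each group is the mean ± SD; the ASO-L1 points of ZIC2 lie between 17.0 and 21.0 CPM, above every control point, and those of NLGN4X lie below every control point.

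ZIC2, a zinc finger transcription factor, showed the largest change among the 8 markers. It stood at 7.53, 7.42, 8.38 and 8.20 CPM in ASO-Ctr replicates 1 to 4, at 6.04, 7.14, 8.12 and 6.91 CPM in sO-L1, and at 21.0, 18.5, 17.3 and 17.0 CPM in ASO-L1. Control libraries reached at most 8.38 CPM and the lowest ASO-L1 library was at 17.0 CPM, so the groups did not overlap. The fold change was 2.34 against ASO-Ctr (95% interval 2.02 to 2.70; log2 1.22, SE 0.10, adjusted p = 7.89e-08, edgeR) and 2.61 against sO-L1 (2.26 to 3.01; adjusted p = 2.88e-08, edgeR). In size it exceeded 97.8% of all tested genes in the first comparison. ZIC2 was higher in all 4 replicate numbers, by 1.04 to 1.47 on the log2 scale against ASO-Ctr.

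Another ZIC gene rose with ZIC2. ZIC5, the coding gene next to ZIC2 on its chromosome, was at 4.775 ± 0.503 CPM in ASO-Ctr, 3.89 ± 0.583 CPM in sO-L1 and 7.42 ± 1.10 CPM in ASO-L1. It rose 1.55-fold against ASO-Ctr (1.31 to 1.82; adjusted p = 0.000223, edgeR). ZIC1 had at most 0.0869 CPM in any library, and ZIC4 had 0 reads in all 12.

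Promoter sequence is shown for 3 of the 5 called markers, ZIC2 and SFRP2, which rose, and NLGN4X, which fell. It is the 250 bases before the first listed RefSeq start (GRCh38.p14), 5′ to 3′ on the gene's strand. ZIC2 is at chr13:99981534-99981783, plus strand, SFRP2 at chr4:153789084-153789333, minus strand and NLGN4X at chrX:6228868-6229117, minus strand. Capitals mark matches to any of 5 motifs searched on both strands, where N is any base. These were the TATA box written TATAAA, the CCAAT box written as its name, the GC box written GGGCGG, the E-box written CACGTG and the AP-1 element written TGANTCA.
ZIC2: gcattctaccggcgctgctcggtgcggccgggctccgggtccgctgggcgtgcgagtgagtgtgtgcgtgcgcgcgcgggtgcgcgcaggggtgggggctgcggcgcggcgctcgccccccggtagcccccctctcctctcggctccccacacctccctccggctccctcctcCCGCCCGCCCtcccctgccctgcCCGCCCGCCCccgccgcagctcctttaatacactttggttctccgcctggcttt
SFRP2: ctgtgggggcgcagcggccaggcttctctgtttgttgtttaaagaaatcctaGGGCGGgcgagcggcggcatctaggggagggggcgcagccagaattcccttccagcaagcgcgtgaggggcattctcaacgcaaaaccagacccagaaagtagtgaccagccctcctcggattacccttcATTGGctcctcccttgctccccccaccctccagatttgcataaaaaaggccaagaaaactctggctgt
NLGN4X: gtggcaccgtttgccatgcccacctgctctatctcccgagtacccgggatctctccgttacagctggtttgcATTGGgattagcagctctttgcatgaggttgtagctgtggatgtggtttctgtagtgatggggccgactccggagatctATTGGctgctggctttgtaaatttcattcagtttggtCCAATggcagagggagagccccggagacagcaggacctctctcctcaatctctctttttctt
ZIC2 held 4 GC boxes, all on the opposite strand and in 2 overlapping pairs between 77 and 45 bases before the start, and no CCAAT. SFRP2 held 1 GC box and 1 CCAAT, and NLGN4X held 3 CCAAT and no GC box. A second listed start of NLGN4X had 2 CCAAT, and the single entry of SALL2, which also fell, had no match. Over all 35116 RefSeq promoter windows of 250 bases, 42.6% held a GC box and 32% a CCAAT, so each motif is common, and none of the printed windows held a TATA box (10.7% of all), an E-box (6.34%) or an AP-1 match (6.57%). Entries were found for 6 of the 9 markers, and THY1, SOX11 and PODXL had none.

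OTX2, a homeobox factor of the epiblast and forebrain, differed little. It stood at 49.1, 56.4, 55.8 and 56.7 CPM in ASO-Ctr, 54.1, 53.5, 55.9 and 57.9 CPM in sO-L1, and 62.9, 62.8, 55.1 and 52.6 CPM in ASO-L1. The groups overlapped, and the ASO-L1 libraries of replicates 1 and 2 were above all 8 control libraries while those of 3 and 4 were not. The log2 fold change was 0.10 against ASO-Ctr (95% interval -0.04 to 0.24, adjusted p = 0.257, edgeR) and 0.08 against sO-L1 (adjusted p = 0.369). Without ASO-L1 replicate 4 it was called higher against ASO-Ctr (log2 0.16, adjusted p = 0.0476, edgeR). The other OTX family genes, OTX1 and CRX, had at most 0.291 CPM in any library.

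SOX11, a factor of the SOXC group that is active in neural progenitors, varied more with the replicate number than with the oligo. It stood at 80.6, 85.4, 109 and 109 CPM in ASO-Ctr, 73.8, 80.3, 103 and 99.9 CPM in sO-L1, and 86.9, 78.4, 102 and 101 CPM in ASO-L1. Replicates 3 and 4 were above replicates 1 and 2 in every group. The log2 fold change was -0.06 against ASO-Ctr (95% interval -0.16 to 0.05, adjusted p = 0.369, edgeR) and 0.05 against sO-L1 (adjusted p = 0.464). Without replicate 1 in all groups it was called lower against ASO-Ctr (log2 -0.11, adjusted p = 0.0228), as it was without ASO-L1 replicate 1 alone (log2 -0.11, adjusted p = 0.0215). Of the other SOXC genes, SOX4 was not called (log2 0.02, adjusted p = 0.705) and SOX12 was called lower by a small amount against ASO-Ctr (log2 -0.11, adjusted p = 0.0318), while against sO-L1 it stood at -0.06 with an adjusted p of 0.225.

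SALL2, a zinc finger factor of the spalt family, fell slightly against ASO-Ctr. It stood at 175, 173, 165 and 163 CPM in ASO-Ctr, 167, 158, 159 and 149.6 CPM in sO-L1, and 140.0, 144, 156 and 157 CPM in ASO-L1. ASO-L1 lay below ASO-Ctr with no overlap and overlapped sO-L1, and the difference from ASO-Ctr was -0.32 and -0.26 on the log2 scale in replicates 1 and 2, and -0.08 and -0.05 in replicates 3 and 4. The fitted log2 difference was -0.18 (SE 0.05, adjusted p = 0.00869, edgeR), and against sO-L1, where no call was made, -0.09 (adjusted p = 0.183). The call against ASO-Ctr was lost with replicate 2 removed from all groups (log2 -0.15, adjusted p = 0.112), and with only its ASO-Ctr library (log2 -0.16, adjusted p = 0.0510) or only its ASO-L1 library removed (log2 -0.16, adjusted p = 0.0529). Over all 16 fits with a number or library removed the log2 difference stayed negative, between -0.23 and -0.12. With ASO-L1 replicate 4 removed, SALL2 was also called lower against sO-L1 (log2 -0.14, adjusted p = 0.0350).

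All 4 SALL genes were tested. SALL1, a factor of kidney and limb development, rose 1.42-fold, from 21.2 ± 3.24 CPM in ASO-Ctr to 30.2 ± 6.01 CPM in ASO-L1 (adjusted p = 4.02e-06, edgeR), and 1.55-fold against sO-L1. SALL4, a core factor of pluripotent cells, was lower than in ASO-Ctr (log2 -0.13, adjusted p = 0.0124), with a log2 difference of -0.04 from sO-L1 (adjusted p = 0.441). SALL3 was not called in either comparison (log2 0.18 and 0.26).

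SFRP2, which binds WNT proteins outside the cell, rose. It stood at 71.6, 78.9, 101 and 93.1 CPM in ASO-Ctr, 57.4, 71.5, 83.4 and 88.9 CPM in sO-L1, and 105, 105, 124 and 111 CPM in ASO-L1. Every ASO-L1 library was above every control library, although in the controls replicates 3 and 4 stood above 1 and 2, as for SOX11. The fold change was 1.305 against ASO-Ctr (95% interval 1.19 to 1.43; adjusted p = 0.000124, edgeR) and 1.49 against sO-L1 (1.36 to 1.64; adjusted p = 1.97e-06, edgeR). Within replicate numbers the difference from ASO-Ctr was 0.26 to 0.55 on the log2 scale, positive in all 4.

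None of the other SFRP family genes tested was called against ASO-Ctr. SFRP1 was at 19.8 ± 2.31 CPM in ASO-Ctr and 19.3 ± 4.77 CPM in ASO-L1 (log2 -0.05, adjusted p = 0.625), SFRP5 was at log2 -0.06 (adjusted p = 0.723), and SFRP4 was under the filter. FRZB, also called SFRP3, differed from ASO-Ctr by log2 -0.22 (adjusted p = 0.274) and fell against sO-L1 (log2 -0.56, adjusted p = 0.00580). Of 11 genes that WNT signalling is known to induce, 7 could be tested: 1 rose against ASO-Ctr, 2 fell and 4 were not called, beside 21.2% of all tested genes called higher and 23.1% lower, with a median log2 of -0.05 beside -0.00279. The 3 of 7 called are close to the 44.3% of all genes. The ones that fell were AXIN2, a feedback inhibitor of the pathway (log2 -0.25, adjusted p = 0.00163), and BMP4 (log2 -0.33, adjusted p = 0.0219). The one that rose was DKK1, at 0.129 ± 0.0478 CPM in ASO-Ctr and 0.310 ± 0.0842 CPM in ASO-L1 (log2 1.25, edgeR adjusted p = 0.0251). DKK1 was near the limit of detection, with 17 reads over the ASO-Ctr libraries and 42 over those of ASO-L1. Against sO-L1 it was not called (log2 0.52, edgeR adjusted p = 0.282).

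THY1 rose as well. It stood at 56.1, 55.7, 53.6 and 53.8 CPM in ASO-Ctr, 52.0, 48.5, 44.1 and 44.6 CPM in sO-L1, and 77.4, 76.2, 76.2 and 64.6 CPM in ASO-L1. The 3 groups did not overlap at all, with sO-L1 lowest and ASO-L1 highest. The fold change was 1.34 against ASO-Ctr (95% interval 1.24 to 1.45; adjusted p = 8.39e-06, edgeR) and 1.56 against sO-L1 (1.44 to 1.68; adjusted p = 1.21e-07, edgeR), positive in all 4 replicate numbers in both.

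THY1 also marks fibroblasts and nerve cells, whose marker lists are given beside it. Fibroblast and mesenchyme markers summed to 55.7 to 71.2 CPM in ASO-L1 and 78.6 to 102 CPM in ASO-Ctr, and 4 of the 10 lay under the filter, with LUM at 0 reads in all 12 libraries and DCN and FAP with 2 and 3 reads in total. Of the 6 tested, TWIST1, a mesenchymal transcription factor, was called higher (3.89 ± 2.69 against 0.311 ± 0.279 CPM), COL1A2 (log2 -0.73) and PDGFRA (log2 -0.90) fell, and 3 were not called. COL1A2, at 36.6 ± 4.645 CPM in ASO-L1 and 61.3 ± 8.71 CPM in ASO-Ctr, was the largest part of the sum. These calls, and those of neural genes below, stand beside 21.2% of all tested genes called higher and 23.1% lower. Neural markers summed to 17.1 to 19.4 CPM in ASO-L1 and 24.9 to 26.1 CPM in ASO-Ctr, with 7 of 10 under the filter. Of the 3 tested, PAX6, a neural factor, rose from 1.82 ± 0.3999 to 2.91 ± 0.778 CPM. DCX, of migrating neurons, fell from 20.9 ± 1.004 to 12.1 ± 1.57 CPM and was the largest part of the sum. STMN2 was not called (log2 0.03, edgeR adjusted p = 0.888), and SOX1, under the filter, had at most 0.216 CPM. The part of such cells in the values of THY1, ZIC2 or NLGN4X was not tested.

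NLGN4X fell in every replicate number. It stood at 63.9, 75.5, 67.1 and 65.0 CPM in ASO-Ctr, 61.2, 71.4, 63.7 and 63.4 CPM in sO-L1, and 28.6, 42.6, 35.9 and 40.8 CPM in ASO-L1. The highest ASO-L1 library was well below the lowest control library, and within numbers the difference from ASO-Ctr was -1.16, -0.83, -0.90 and -0.67 on the log2 scale. The fitted difference was -0.88 (SE 0.07, a 1.84-fold fall with a 95% interval of 1.67 to 2.03; adjusted p = 4.24e-08, edgeR) against ASO-Ctr and -0.82 (adjusted p = 7.97e-08) against sO-L1.

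Other neuroligins, and genes of their binding partners on facing cells, the neurexins, were called lower too. NLGN1 was 1.78-fold lower at 3.47 ± 0.585 against 6.16 ± 0.705 CPM (adjusted p = 6.41e-05, edgeR), and NLGN2 was 1.65-fold lower at 36.1 ± 4.43 against 60.2 ± 10.2 CPM (adjusted p = 4.875e-06). NLGN3 was not called (log2 -0.30, adjusted p = 0.0709). Of the neurexins, NRXN3 fell from 2.52 ± 0.931 to 1.04 ± 0.0444 CPM (log2 -1.24, adjusted p = 0.000217) and NRXN2 from 0.723 ± 0.287 to 0.423 ± 0.146 CPM (log2 -0.765, adjusted p = 0.0240). Thus 3 of 4 neuroligins were called lower, beside 23.1% of tested genes, and the same count was found against sO-L1.

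PODXL, a heavily glycosylated surface mucin and the most abundant of the markers, was not called. It stood at 1050, 1132, 1148 and 1102 CPM in ASO-Ctr, 993, 1086, 1112 and 1055 CPM in sO-L1, and 1056, 1085, 1071 and 1069 CPM in ASO-L1. The ASO-L1 libraries lay within the range of ASO-Ctr. The log2 fold change was -0.05 (95% interval -0.12 to 0.02, adjusted p = 0.261, edgeR) against ASO-Ctr and 0.01 (-0.06 to 0.09, adjusted p = 0.784) against sO-L1. PODXL2, its relative, was not called either (log2 -0.03), and CD34 had at most 0.157 CPM. Of the proteins that tie podocalyxin to actin, EZR (ezrin) was higher than in ASO-Ctr (log2 0.16, adjusted p = 0.00269), SLC9A3R1 (NHERF1) was lower (log2 -0.30, adjusted p = 0.00257) and SLC9A3R2 was not called.

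Reads counted for CD24P4, a processed copy nearly identical to CD24, are given for the marker that was not analysed. Which locus they came from was not tested. CD24P4 was listed at 178, 159, 147 and 149 CPM in ASO-Ctr, 169, 145, 150.0 and 157 CPM in sO-L1, and 153, 149.9, 141 and 149.9 CPM in ASO-L1. The groups overlapped, and the log2 difference of ASO-L1 was -0.09 from ASO-Ctr (adjusted p = 0.132) and -0.06 from sO-L1 (adjusted p = 0.299), neither of them called. Another copy, CD24P2, had 2 reads in all.

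**Figure D2:**
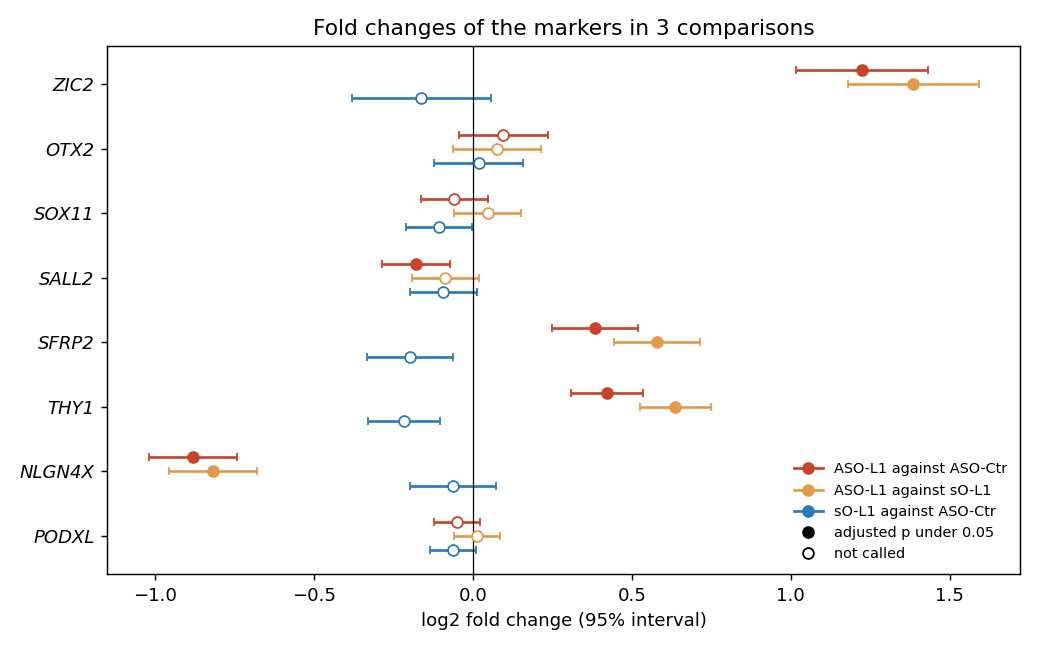
Log2 fold change (x axis) with its 95% interval for 8 markers (rows) in 3 comparisons, from edgeR; filled points have an adjusted p under 0.05 and open points do not. ZIC2, SFRP2 and THY1 lie to the right and NLGN4X to the left in both comparisons of ASO-L1, while all 8 points of sO-L1 against ASO-Ctr are open.

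Against sO-L1, which shares its ASO-L1 libraries with the comparison just described, the test called 3 of 8 markers higher (ZIC2, THY1, SFRP2) and 1 lower (NLGN4X), beside 21.1% of tested genes called higher and 22.9% lower (44% in all). In the same 4 markers the groups did not overlap, beside 32.1% of tested genes (16% higher, 16.2% lower). The authors' deposited table of this comparison gives log2 fold changes of 1.38 for ZIC2, 0.635 for THY1, 0.57 for SFRP2 and -0.82 for NLGN4X. Its adjusted p-values, from the authors' own fit, are 7.02e-09, 5.63e-08, 5.34e-06 and 1.755e-06, and those it lists for SALL2, OTX2, SOX11 and PODXL are 0.210 and higher.

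The sense oligo against the non-targeting oligo shows how far 2 controls differ. None of the 8 markers was called by edgeR, beside 0.29% of tested genes (0.0695% higher, 0.22% lower), with 3 of 8 at an unadjusted p under 0.05, and 0 were called by DESeq2 and 1 by limma on the authors' log2 table. THY1 was the nearest, at log2 -0.22 (95% interval -0.33 to -0.10, adjusted p = 0.152, edgeR), and the CPM of its sO-L1 and ASO-Ctr libraries did not overlap, as for 3.23% of tested genes (1.24% higher, 1.99% lower). SFRP2 was at log2 -0.20 (adjusted p = 0.374) and ZIC2 at -0.16 (adjusted p = 0.844). The calls in this comparison depended on which libraries were in the fit, for all genes as for the markers. With ASO-L1 left out of the fit, 3.83% of tested genes were called (2.26% lower), and THY1 and SFRP2 were among those lower (adjusted p = 0.000248 and 0.000389). With ASO-L1 replicate 1 alone left out, 2.34% were called (1.37% lower), again with THY1 and SFRP2 lower (adjusted p = 0.00358 and 0.00455). THY1 was also called lower without replicate 1 in all groups (adjusted p = 0.00381), where 1.4% of genes were called, and with limma (adjusted p = 0.0238), where 1.04% were.

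**Figure D3:**
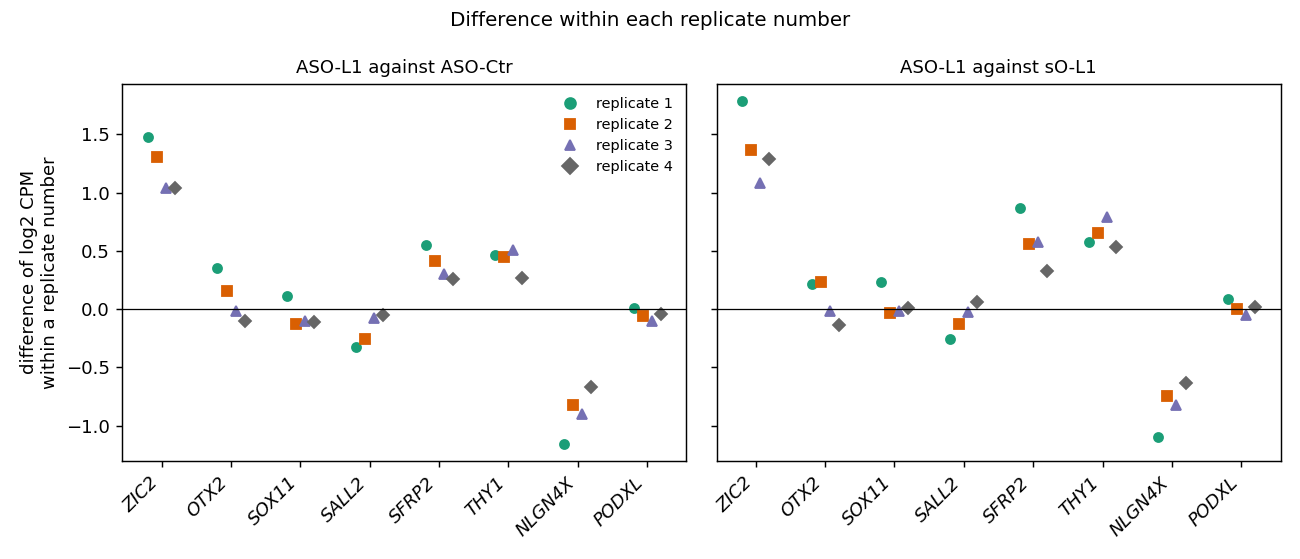
Difference of log2 CPM (prior count 2, y axis) between ASO-L1 and each control within each of the 4 replicate numbers, for 8 markers. All 4 points are above 0 for ZIC2, SFRP2 and THY1 and below 0 for NLGN4X in both panels, while the points of OTX2, SOX11 and PODXL lie on both sides of 0.

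Within replicate numbers, 5 of 8 markers differed in the same direction in all 4 numbers for ASO-L1 against ASO-Ctr, and 4 against sO-L1. For sO-L1 against ASO-Ctr, where no marker was called, 7 of 8 did, so a shared direction alone does not set ASO-L1 apart. The share of all tested genes with a shared direction was not computed. The size of the ASO-L1 differences varied, as the plot of differences within numbers shows. For ZIC2 and SFRP2 the differences from ASO-Ctr in replicates 1 and 2 (1.47 and 1.31, and 0.55 and 0.42) were above those in replicates 3 and 4 (1.04 and 1.04, and 0.30 and 0.26). Against sO-L1 this split held for ZIC2 but not for SFRP2, at 0.56 in replicate 2 and 0.57 in replicate 3. The split was noticed in the values and was not tested.

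Other genes used as primed markers moved in both directions. Of 18 further primed-state genes 17 could be tested, of which 4 rose against ASO-Ctr, 8 fell and 5 were not called, beside 21.2% of all tested genes called higher and 23.1% lower. The list's median log2 was -0.07, beside -0.00279 over all tested genes. Those that rose were VIM, an intermediate filament (3.43-fold, to 415 ± 74.4 from 122 ± 21.0 CPM, adjusted p = 9.87e-09), ZIC5, DUSP6, a phosphatase of ERK (log2 0.49), and SOX3 (log2 0.61). DNMT3B, the de novo DNA methyltransferase, fell from 2505 ± 154 to 1764 ± 169 CPM, FZD7, a WNT receptor, from 500.5 ± 17.5 to 336 ± 46.6 CPM (log2 -0.58, adjusted p = 1.36e-07), and PTPRZ1, a receptor phosphatase, from 178 ± 15.8 to 117 ± 16.1 CPM (log2 -0.61, adjusted p = 2.77e-07). The other 5 that fell were TCF7L1, B3GAT1, STC1, FAT3 and CYTL1, by 0.57 to 0.96 on the log2 scale. Against sO-L1 4 rose and 9 fell, beside 21.1% and 22.9% of all tested genes.

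Naive-state genes also moved in both directions. Of 16 genes 15 could be tested, and 7 rose against ASO-Ctr, 4 fell and 4 were not called, with a median log2 of 0.09. That count and the core gene count below stand beside the same 21.2% higher and 23.1% lower over all tested genes. Against sO-L1 5 rose, 5 fell and 5 were not called (median log2 0.05), beside 21.1% higher and 22.9% lower. For sO-L1 against ASO-Ctr the list had a median log2 of 0.14, with 0 genes called. The lists were not tested against each other. KLF4 rose from 20.1 ± 3.04 to 47.5 ± 8.88 CPM (adjusted p = 1.25e-08) and KLF5 from 2.97 ± 0.352 to 6.49 ± 2.30 CPM (adjusted p = 3.73e-05), while DPPA5 (log2 -1.04), FGF4 (log2 -0.55), NLRP7 (log2 -0.39) and ZFP42 (log2 -0.14) fell. DPPA3 rose to 40.9 ± 4.13 CPM, by log2 0.42 against ASO-Ctr, and sO-L1 stood between the 2 groups at 36.15 ± 5.08 CPM. Against sO-L1 the difference was smaller (log2 0.18, adjusted p = 0.0276, edgeR) and the libraries overlapped. Of 8 core pluripotency genes 1 rose, DPPA4 (log2 0.19), 3 fell, LIN28A, SALL4 and L1TD1, by 0.10 to 0.22, and POU5F1, NANOG, SOX2 and TDGF1 were not called, although SOX2 was called lower against sO-L1 (log2 -0.11, adjusted p = 0.0256).

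**Figure D4:**
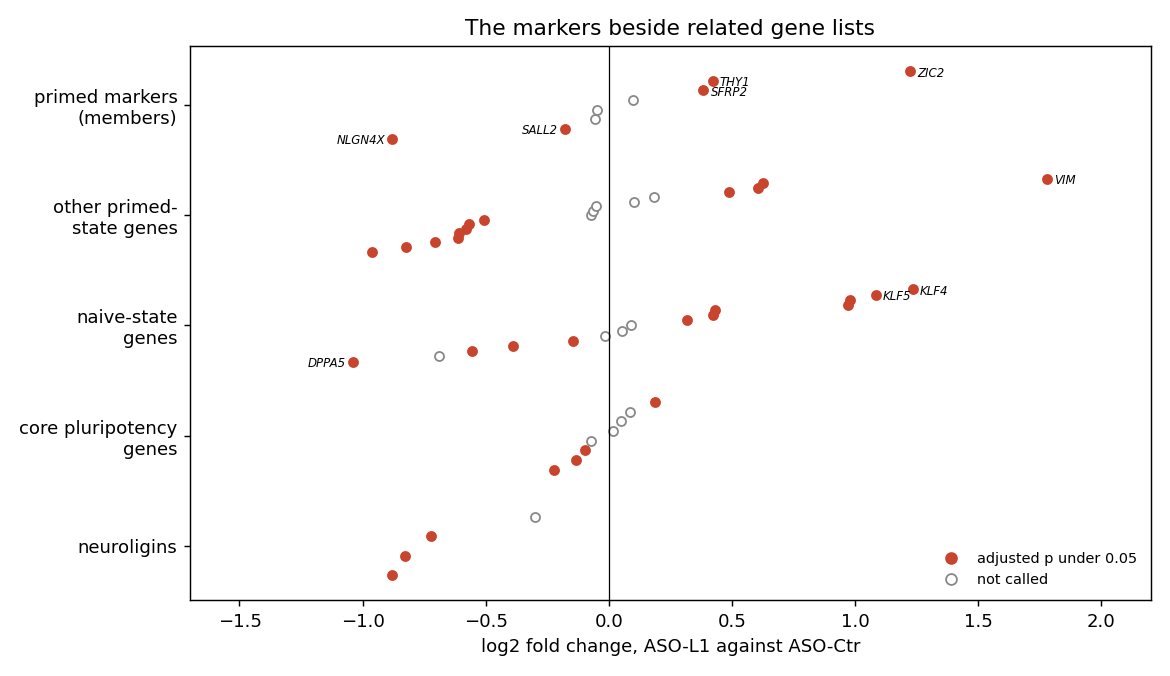
Log2 fold change of ASO-L1 against ASO-Ctr (x axis) for tested genes of 5 lists (rows), each point a gene and filled where its adjusted p is under 0.05. Primed and naive genes lie on both sides of 0, and all 4 neuroligins lie left of it.

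Most listed markers of other lineages were under the filter. Of 10 trophectoderm and amnion markers 6 were under the filter, and the list summed to 8.17 to 12.9 CPM in ASO-L1 and 7.10 to 8.56 CPM in ASO-Ctr. Of the 4 tested, the 1 called was GATA2, higher. Of 6 primitive endoderm markers only FOXA2 could be tested and it was called higher (log2 1.21), with a sum of the list of at most 3.64 CPM. Of 5 primitive streak markers only MIXL1 could be tested, and it rose from 14.4 ± 2.22 to 22.3 ± 6.01 CPM. Over all tested genes 21.2% were called higher and 23.1% lower in this comparison of ASO-L1 with ASO-Ctr.

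Genes of most similar pattern were looked up over the 12 libraries, by Pearson's r of log2 CPM centred on the replicate number, among 10782 other genes with a mean of at least 5 CPM. For ZIC2 these were FJX1 (r = 0.996) and RABEPK (r = 0.993), for SFRP2 H2AFY (r = 0.992) and KIF7 (r = 0.990), for THY1 TEAD4 (r = 0.991) and GRWD1 (r = 0.987), and for NLGN4X AIG1 (r = 0.9985) and SEMA6A (r = 0.998). Those of SALL2 were GPI (r = 0.991) and SMO (r = 0.9745), of PODXL IGF1R (r = 0.994) and EP300 (r = 0.965), of SOX11 ARID1A (r = 0.968) and GLIS2 (r = 0.968), and of OTX2 PDP1 (r = 0.966) and FUBP1 (r = 0.957). All genes were read in the same 12 libraries, with the same depths and oligo groups behind each pattern, and each gene named is the best of many, so high values describe these libraries only. Among the markers themselves, ZIC2, SFRP2 and THY1 correlated with one another (r = 0.933 to 0.946), and NLGN4X ran against each of them (r = -0.898 to -0.975). The difference between oligo groups was left in these values, so for these called markers they largely repeat the direction of the calls. SOX11 and PODXL, neither of which was called, had r = 0.8935.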

How the data were processed

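Poly(A) RNA of 12 libraries, made with a stranded kit from 80 to 130 ng, was counted per gene. The authors deposited raw counts, with duplicates removed as the name of the table says, which can lower abundant genes. The tools named per the submitters' processing notes are TopHat2 2.0.13, Trim Galore 0.4.0, Subread 1.5.0 and featureCounts, with build hg19, and no source used here names the annotation. The authors also deposited a log2 table, named as batch-corrected, and their own comparison of ASO-L1 with sO-L1 (log2 fold changes and p-values, with a score per gene that was not used).

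Counts were fitted in R 4.3.3 with edgeR 4.0.16 (TMM factors, quasi-likelihood F-tests, terms for group and replicate number, all 12 libraries together). The filterByExpr filter at 10 counts kept 17264 genes. Intervals use the t distribution with the degrees of freedom of that test. Libraries of the same number deviated together (r from 0.215 to 0.726 over 12 pairs in 10549 genes, each above 0.1), so the numbers were taken to pair the libraries. Replicates differed by more than counting error (chi-squared per gene of 3.00 to 29.0). Other fits used DESeq2 1.42.0 and limma 3.58.1 on the authors' log2 table. Other alternatives were RLE scaling, library size alone, no filter, no replicate block, 2 groups per fit, and leaving out each number or library. The scripts were tested on simulated data.

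The markers and lists were chosen with earlier results of these data known. All markers are named, with up to 2 called genes of each further list and direction by smallest adjusted p, every called gene where 5 or fewer were called, the tested family genes, and the 2 genes of most similar pattern. Names of other called genes were chosen after their values were seen. Some genes of these lists are not reported here.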

Additional observations from a re-analysis of the deposited data

Results flagged for a closer look

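In 24 sets of 4 libraries (8 markers in 3 groups) the highest or lowest library was compared with the others by Dixon's ratio at its 95% critical value, which chance passes in about 1 of 20 sets. OTX2 in ASO-Ctr replicate 1, at 49.1 CPM, lay far below the other ASO-Ctr libraries, which held 55.8 to 56.7 CPM. THY1 in ASO-L1 replicate 4, at 64.6 CPM, lay far below the other ASO-L1 libraries, at 76.2 to 77.4 CPM, and was still above every control library.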

How the results depend on the processing

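Across 16 fits with 1 replicate number or 1 library removed, 366 of 384 marker results kept their direction and side of the threshold, and across 7 other alternatives 163 of 168 did. Calls of ZIC2, SFRP2, THY1 and NLGN4X for ASO-L1 against either control held in all of these fits. Leaving libraries out, 3 to 4 markers were called higher and 1 to 3 lower for ASO-L1 against ASO-Ctr, 3 higher and 1 to 2 lower against sO-L1, and 0 higher and 0 to 2 lower for sO-L1 against ASO-Ctr. In the last comparison 2 were called lower with only the 2 groups compared in the fit and 1 with limma on the authors' log2 table. With limma PODXL was also called lower for ASO-L1 against ASO-Ctr (log2 -0.06, adjusted p = 0.0290). Dropping the replicate block changed no marker's call. Over all genes edgeR then called 34.1% (ASO-L1 against ASO-Ctr), 33.5% (ASO-L1 against sO-L1) and 0.0985% (sO-L1 against ASO-Ctr, 17 genes in place of 50). For sO-L1 against ASO-Ctr DESeq2 called 95 genes, limma 209, edgeR with no filter 141 and edgeR on only these 2 groups 640. With a library or number removed it called 10 to 410, highest without ASO-L1 replicate 1 (410) and without replicate 1 in all groups (241), so the 0.29% depends on the fit. With no filter 20.7% of genes were called for ASO-L1 against either control. Signs turned only in markers that were not called: OTX2 for sO-L1 against ASO-Ctr (log2 from -0.0389 to 0.0647 over fits with a library or number removed: -0.0126 without replicate 1, -0.0389 without ASO-Ctr replicate 1, -0.0172 without sO-L1 replicate 4), PODXL for ASO-L1 against sO-L1 (-0.00716 with limma, from -0.00912 to 0.0363 with a library or number removed: -0.00912 without replicate 1, -0.00506 without sO-L1 replicate 1, -0.00772 without ASO-L1 replicate 1) and SOX11 in that comparison (from -0.0111 to 0.0804: -0.0111 without replicate 1, -0.00957 without ASO-L1 replicate 1). The causes were not tested. RLE scaling, library size alone, no filter and DESeq2 changed no call of a marker. The effect of depth was not tested, and it limits genes with few reads, such as KLF17, the most.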

Other observations

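Coding genes next to the markers, in the RefSeq order of GRCh38.p14 among genes with a row of counts, are given for ASO-L1 against ASO-Ctr, apart from ZIC5, which is described above. PCCA, a mitochondrial carboxylase subunit on the side of ZIC2 away from ZIC5, was lower, at log2 -0.46 (edgeR adjusted p = 5.48e-06). TMEM260, beside OTX2, fell by 0.43 (adjusted p = 0.000305), and EXOC5, on its other side, was not called (log2 0.02). USP2, a deubiquitinase beside THY1, rose (log2 0.77, adjusted p = 0.00136). The neighbours RNF175 and DCHS2 of SFRP2, PRKX of NLGN4X, CMPK2 of SOX11, METTL3 of SALL2, and MKLN1 and PLXNA4 of PODXL were not called, and TRIM29, VCX3A, DCDC2C and OR10G3 were under the filter. OTX2-AS1, which is antisense to OTX2, had 16 reads over all libraries.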
